A study of Homo sapiens with 12 samples.

Results

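The genes described here are the WNT ligands, their Frizzled, LGR and LRP receptors, the secreted R-spondins, DKK and SFRP proteins, and the main intracellular parts of the pathway. The rule that picks them uses gene symbols and no measured value, and 41 of the 45320 genes in the count files matched. The rule itself was chosen with earlier results of these data known. ZNRF3, Frizzled genes other than FZD3, FZD6 and FZD10, and some WNT, R-spondin, DKK and SFRP genes are not analysed here. The RNA came from the established human endometrial cancer line Ishikawa. The control arm is labelled shNC, and in the other arm, shARID1A, a short hairpin RNA targets ARID1A, which encodes a DNA-binding subunit of SWI/SNF chromatin remodellers. For 8 h before harvest, each arm was given DMSO alone as vehicle, 17-beta-estradiol at 10 nM (E2), or that dose of E2 combined with the estrogen receptor antagonist fulvestrant at 100 nM. Both arms had been kept beforehand in charcoal-stripped serum and medium lacking phenol red. The 6 groups have 2 libraries each, and the labels do not say whether these came from separate cultures, so all p-values measure the spread between libraries, which may be technical. The labels also do not say how many hairpins or clones stand behind an arm, so an effect of ARID1A and any other difference between the 2 lines cannot be told apart.

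WNT proteins are secreted lipid-modified ligands that bind Frizzled receptors together with LRP5 or LRP6. Without ligand, a destruction complex built on AXIN and APC marks beta-catenin, the product of CTNNB1, for degradation. With ligand the complex is held back, and beta-catenin enters the nucleus and acts with TCF and LEF factors on target genes, among them AXIN2, LGR5, LEF1, RNF43 and DKK1, several of which feed back on the pathway. R-spondins bound to LGR receptors remove the ubiquitin ligase RNF43 from the cell surface, which otherwise clears Frizzled. In the endometrium the pathway takes part in gland formation and in the estrogen-driven growth of the lining, and mutation of CTNNB1 is common in endometrioid carcinoma.

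The libraries held 28810351 to 38657162 counts, and the members took up 0.125 to 0.134% of them. Levels are given as CPM, counts relative to the TMM-scaled library total, and as RPKM, which is CPM per kilobase of exon, where genes are compared with each other. The targeted gene ARID1A measured 109.9 to 123.3 CPM in shNC and 53.8 to 61.7 CPM in shARID1A. Of 8 epithelial markers, KRT8 and KRT18 were abundant, while EPCAM had 0.383 to 1.97 CPM, CDH1 at most 0.658 and KRT19 at most 0.172. Their summed level was 993 to 1089 CPM in shNC and 652 to 711 CPM in shARID1A. Averaged over treatments, 4 of the 6 tested markers were called lower and 0 higher, against 22.8% and 20.3% of all genes. The 9 stromal fibroblast markers summed to 32.2 to 44.0 CPM in shNC and 50.1 to 53.3 in shARID1A, mostly from COL1A1. Of the 3 tested, COL1A1 was called higher (log2 fold change 0.60), and DCN (-2.91) and PDGFRB (-0.55) lower. THY1 and FAP were at 0. DCN passed the filter on low counts through shNC, with 30 to 56 counts there against 1 to 14 in shARID1A. DCN could therefore only be called lower. The 4 endometrial epithelium markers in the files summed to 9.47 to 11.3 CPM in shNC and 7.62 to 9.91 in shARID1A. Of the 3 tested, 2 were called lower and 0 higher, against the same shares of all genes. The immune, endothelial and neural markers summed to 1.36 to 1.99, 0.0580 to 0.282 and 196 to 224 CPM in shNC and to 2.13 to 3.70, 0.0541 to 0.270 and 198 to 221 in shARID1A, with CD3E, CD3D, KDR and ELAVL4 at 0. The part of these marker shifts in the results below was not tested, and in bulk RNA fewer cells of a type and less RNA per cell cannot be told apart.

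Of the 41 members, 25 passed the filter on low counts and were tested. DKK2, FZD3, SFRP1, WNT3, WNT7A, WNT8A, WNT9B and WNT10A had 0 counts in all 12 libraries, where a floor of 3 counts is 0.0776 to 0.104 CPM. RSPO2, SFRP4, TCF7L1, WNT2, WNT3A, WNT4, WNT5B and WNT6 had a count in some library, at most 14 (WNT4) and at most 0.425 CPM. The limits cover counting error only. The exon models in the files are short for some of these genes, 245 bases for FZD3 and 408 for WNT6, which limits what a low count shows.

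Among the ligand genes in the files, RNA came almost entirely from 3. WNT10B (chromosome 12, 49359188 to 49365501, hg19), a ligand of the beta-catenin branch, was the most abundant member at 131 ± 4.86 RPKM in shNC (SD, n = 6), and only 466 of the 17020 tested genes had a higher RPKM. WNT5A, which mostly signals without beta-catenin, followed at 24.7 ± 1.27 RPKM and WNT7B, an epithelial ligand that acts through beta-catenin, at 14.2 ± 0.843 RPKM. WNT10B held 74.2 to 77.8% of the summed ligand RPKM in the shNC libraries, WNT5A 12.5 to 15.2% and WNT7B 7.74 to 8.77%. WNT11 and WNT2B together added little, with 1.76 ± 0.921 and 0.688 ± 0.124 RPKM. Of the 15 ligand genes in the files, 5 were tested.

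**Figure D1:**
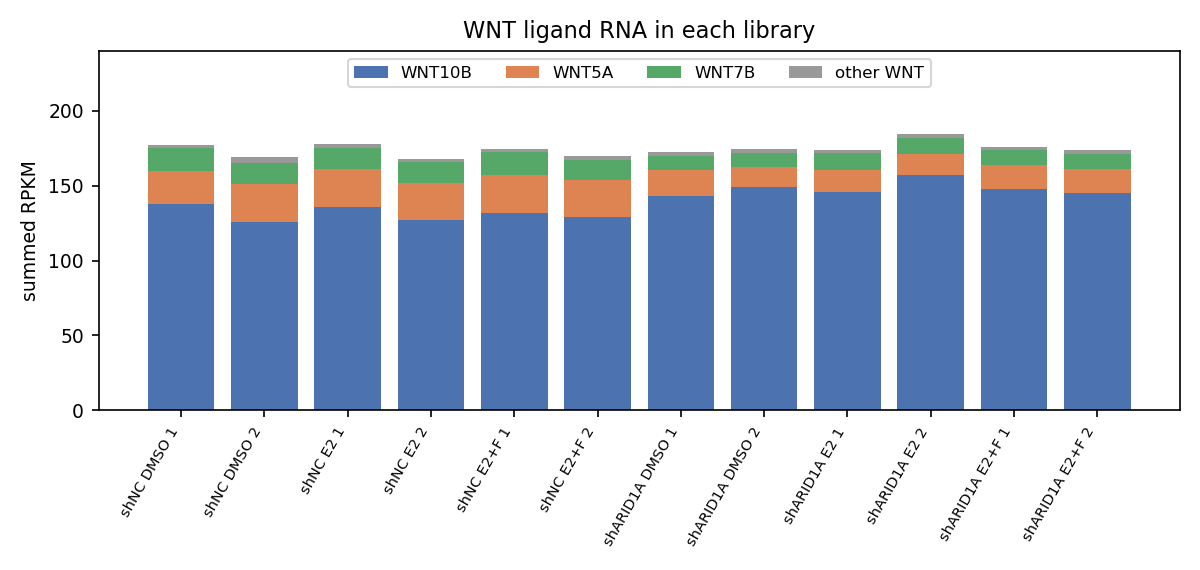
Summed RPKM of the WNT ligands in each of the 12 libraries, stacked by gene (E2+F is E2 plus fulvestrant). WNT10B makes up 74.2 to 77.8% of the bar in shNC and a mean of 84.1% in shARID1A, while the whole bar stays between 168 and 185 RPKM.

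Among the receptors in the files, the highest levels were those of LRP5 at 26.2 ± 0.837 RPKM, LGR4 at 22.6 ± 1.36, FZD10 at 21.1 ± 0.875 and FZD6 at 19.5 ± 2.08 in shNC. The library ranges of LGR4, FZD10 and FZD6 overlap. Within each shNC library LGR4 lay above FZD6, while the place of FZD10 varied. LRP6 was at 6.84 ± 0.587 RPKM. LGR6 was far lower at 1.42 ± 0.0968 RPKM and LGR5 lower still at 0.150 ± 0.0336 RPKM. Of the intracellular members, CXXC5, a CXXC zinc-finger protein that binds Dishevelled, had 62.0 ± 2.45 RPKM and CTNNB1 34.8 ± 1.58 RPKM. AXIN1 had 9.33 ± 0.580 RPKM, against 1.34 ± 0.210 for AXIN2. TCF7L2 was the most abundant TCF gene at 5.27 ± 0.250 RPKM, followed by LEF1 at 2.37 ± 0.156 and TCF7 at 0.116 ± 0.0320. For AXIN2 and RNF43, 49.0% and 23.9% of the exon length overlaps another annotated gene, on the same strand for AXIN2 and the opposite strand for RNF43. These other genes held 0 to 1 and 0 to 4 counts a library. How reads in the shared stretches were handled was not tested.

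**Figure D2:**
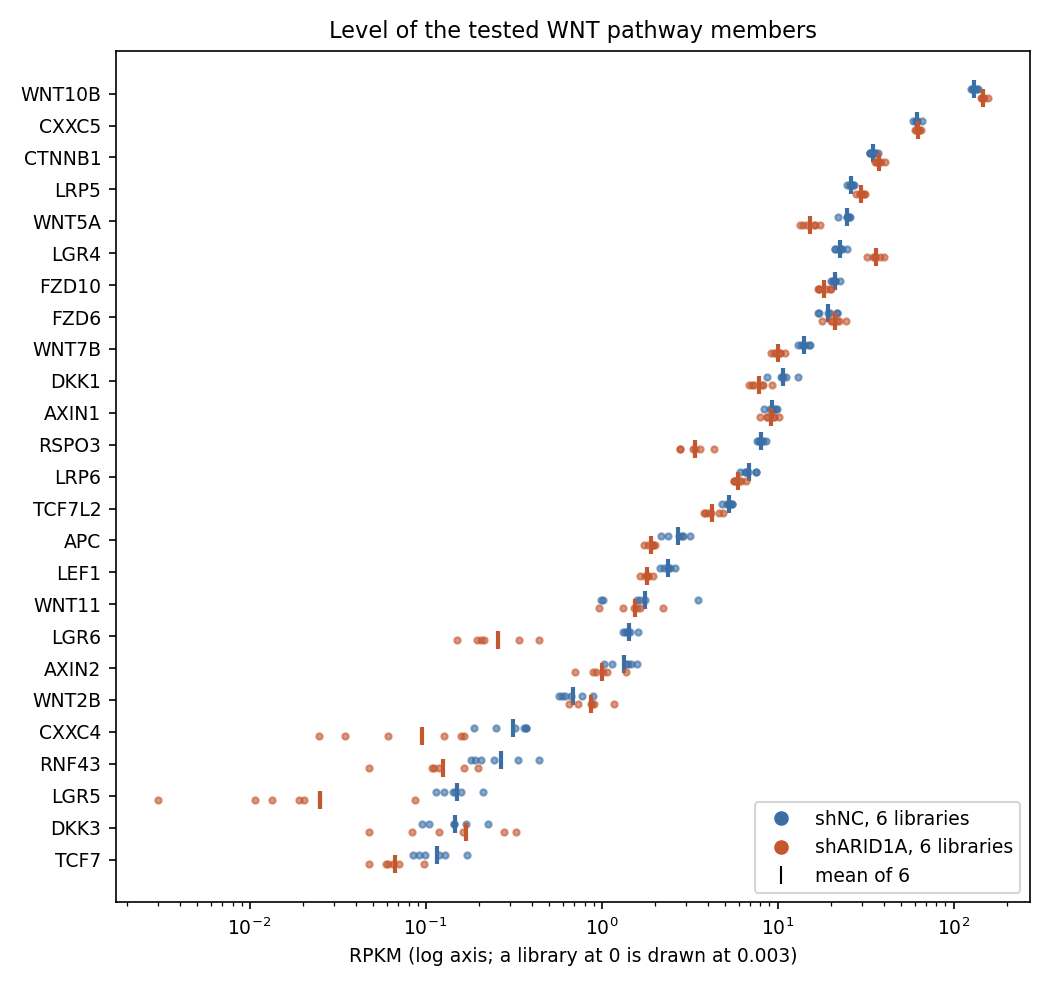
RPKM of the 25 tested members on a log axis, ordered by the shNC mean, with each library as a point and the mean of 6 as a bar (blue shNC, orange shARID1A). Levels run from 0.116 RPKM (TCF7) to 131 RPKM (WNT10B) in shNC, and the arms separate most for LGR5, LGR6, CXXC4 and RSPO3.

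Most members that differed between the arms were lower in shARID1A. In DMSO 6 of the 25 tested members were called lower (adjusted p under 0.05, edgeR) and 3 higher, against 9.5% lower and 9.7% higher among all 17020 tested genes. With E2, 10 were lower and 3 higher, against 13.8% and 13.4%. With E2 plus fulvestrant, 10 were lower and 3 higher, against 12.8% and 11.4%. Averaged over the 3 treatments, which uses all 12 libraries, 15 members were lower and 5 higher, 60% and 20% of those tested, against 22.8% and 20.3% of all genes. The median log2 fold change of the tested members in that comparison was -0.31, and that of all genes -0.02. The 6 and 6 libraries of the arms did not overlap in CPM for 11 of the 25 members, 8 lower and 3 higher, and for 22% of all genes. Members with few counts in every group are left out of these counts, so they describe the tested members only. The members were also chosen with earlier results of these data known. Their shares beside those of all genes are therefore a description and no test of the set. LGR5 passed the filter through shNC, with 18 to 35 counts there against 0 to 13 in shARID1A. It could therefore enter these counts only as a lower member.

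LGR5, LGR6, RSPO3, WNT5A, WNT7B and APC were called lower and LGR4 and LRP5 higher in each of the 3 treatments (6 and 2 members, against 1107 and 1151 of all genes). AXIN1, CXXC5, DKK3, WNT11 and WNT2B were not called in any knockdown comparison. The DMSO count of 9 fell without replicate 1 of shARID1A in DMSO. The E2 count of 13 fell when replicate 2 was left out of shNC or out of shARID1A. Under the combined treatment the count of 13 fell when replicate 2 was left out of shNC or replicate 1 out of shARID1A. Each of these fits leaves 1 library in a group. Without replicate 2 of shNC with E2, fewer of all genes were called with E2 as well, so that fall was not particular to the members.

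**Figure D3:**
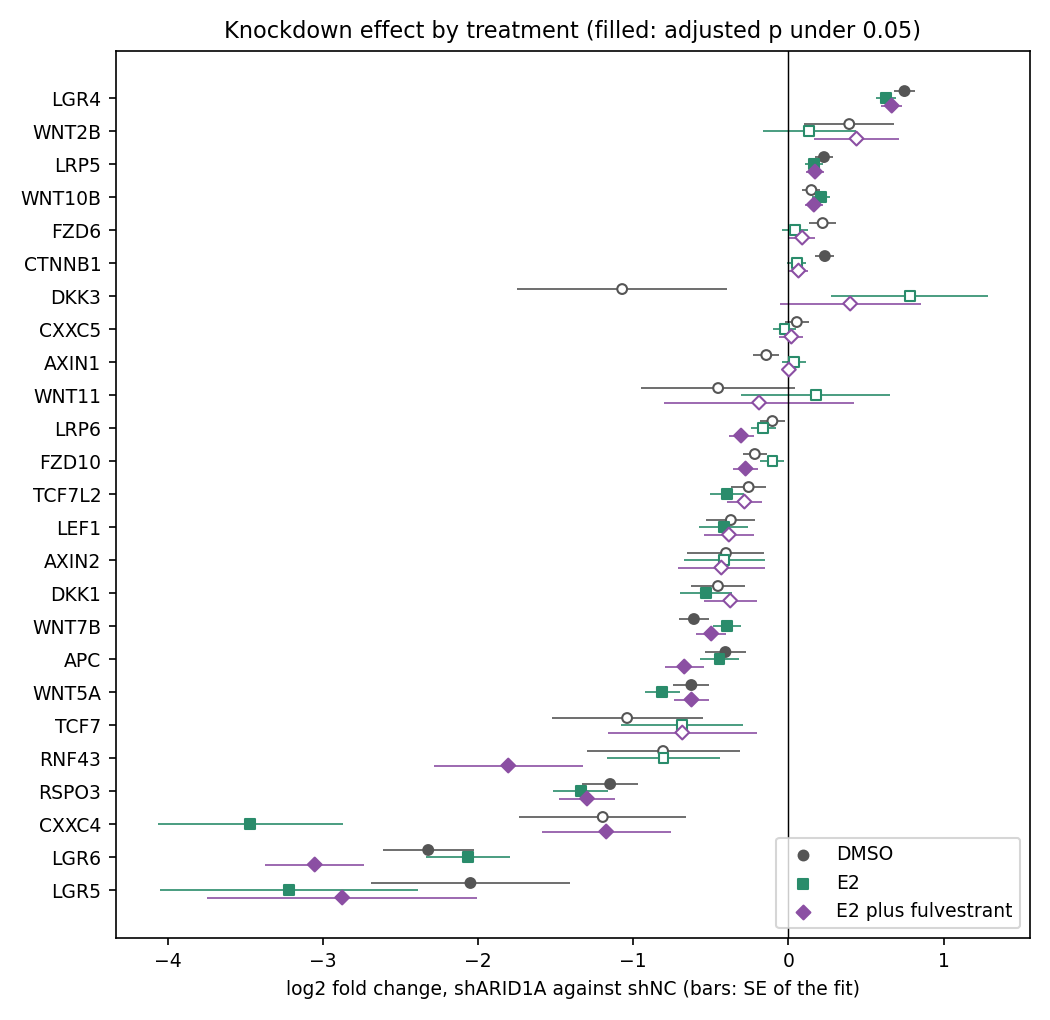
Log2 fold change of shARID1A against shNC for the 25 tested members in DMSO (circles), E2 (squares) and E2 plus fulvestrant (diamonds), with the SE of the fit and calls filled. LGR5 and LGR6 lie at -2.05 or below in all 3 treatments, LGR4 lies between 0.63 and 0.75 in all 3 treatments, and the wide bars belong to members with few counts.

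The LGR receptors went in opposite directions. LGR4 (chromosome 11, 27387508 to 27494322, hg19), the broadly expressed R-spondin receptor, measured 134.5 and 145.0 CPM in the shNC libraries given DMSO, 133.9 and 141.3 in those given E2, and 146.5 and 157.1 in those given both agents. In the same order the shARID1A libraries measured 242.7 and 226.5, 221.2 and 205.0, and 226.7 and 254.9 CPM. Every shARID1A library thus lay above every shNC library, and the log2 fold change was 0.75, 0.63 and 0.67 in the 3 treatments (SE 0.07 each, adjusted p = 3.73e-10, 1e-08 and 3.32e-09). LGR4 had the smallest p of the members in each knockdown comparison. Averaged over treatments it rose by 0.68 (SE 0.04, adjusted p = 1.34e-15).

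LGR6 (chromosome 1, 202172905 to 202288818, hg19), a related receptor that marks stem cells of the skin, fell. In shNC it measured 5.52 and 5.86 CPM under DMSO, 5.39 and 5.77 under E2, and 6.51 and 5.67 under the combined treatment. In shARID1A the values were 1.39 and 0.877, 0.799 and 1.78, and 0.618 and 0.844 CPM. The arms stood well apart, and the mean over 6 libraries was 81.8% lower. The log2 fold change was -2.32, -2.07 and -3.05 (SE 0.29, 0.27 and 0.32; adjusted p = 3.93e-07, 5.71e-07 and 1.06e-08).

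LGR5 (chromosome 12, 71833764 to 71980086, hg19), the stem cell receptor and a classical beta-catenin target, was scarce in both arms. The shNC libraries held 35, 22, 25, 22, 23 and 18 counts. The shARID1A libraries held 0 and 13 counts under DMSO, 3 and 2 under E2, and 3 and 2 under the combined treatment. All 6 shARID1A libraries were below all 6 shNC libraries, although the 2 shARID1A libraries in DMSO were far apart. Over the 6 libraries of each arm, 23 counts against 145 gave a ratio of 0.163 (95% Clopper-Pearson interval 0.0999 to 0.253, counting error only). With E2 the ratio was 0.103 (0.0318 to 0.257) and with E2 plus fulvestrant 0.131 (0.0404 to 0.331). The log2 fold change averaged over treatments was -2.71 (SE 0.45, adjusted p = 7.45e-06), and -4.65 without replicate 2 of shARID1A in DMSO. In DMSO it was -2.05 (adjusted p = 0.0203), -1.05 (adjusted p = 0.313) without replicate 1 of shARID1A in DMSO and -7.86 without replicate 2, which leaves only a library at 0 counts, so that this fitted value is no measure of size. The DMSO call was also lost without replicate 1 of shNC, the E2 call without replicate 2 of shARID1A, and the call under the combined treatment when replicate 1 of shNC or either shARID1A library was left out (highest adjusted p = 0.0694 and 0.101). DESeq2 gave LGR5 no adjusted p in the single treatments.

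RSPO3 (chromosome 6, 127440183 to 127518910, hg19), the only R-spondin gene that was tested, fell as well. In shNC it measured 11.8 and 10.95 CPM under DMSO, 11.3 and 11.7 under E2, and 11.2 and 12.4 under the combined treatment. In shARID1A it had 6.24 and 4.01, 5.21 and 3.97, and 4.73 and 4.86 CPM. The arms did not overlap, and the mean was 58.1% lower. The log2 fold change was -1.15, -1.34 and -1.30 (SE 0.18 each, adjusted p = 1.35e-05, 6.69e-07 and 2.12e-06). The ratio of LGR4 RPKM to the sum of LGR5 and LGR6 RPKM was 13.2 to 16.4 in the shNC libraries and 71.95 to 207.5 in the shARID1A libraries.

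**Figure D4:**
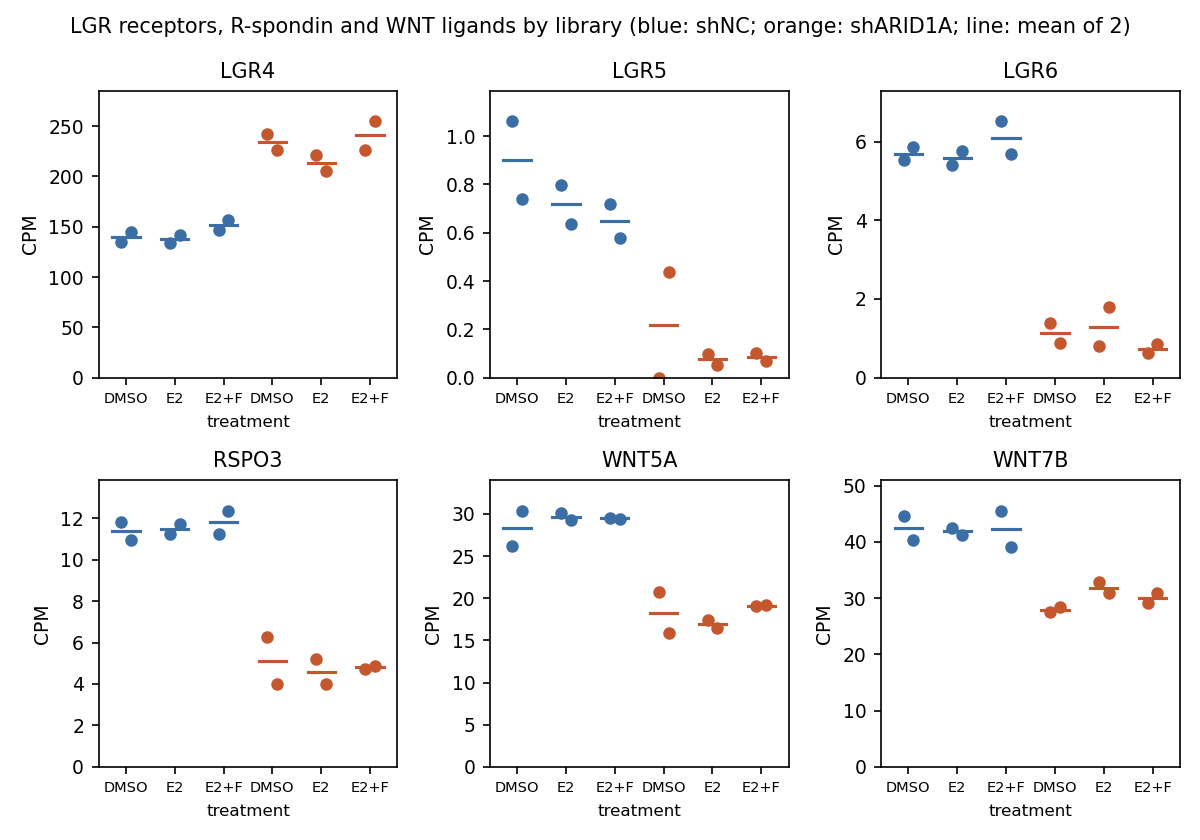
CPM of the 3 LGR receptors, RSPO3, WNT5A and WNT7B in every library, by arm and treatment (E2+F is E2 plus fulvestrant), with a line at the mean of 2. LGR4 is the panel in which shARID1A is above shNC, and in all 6 panels the libraries of the arms do not overlap.

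RNF43, the membrane ubiquitin ligase that R-spondin signalling removes, was scarce, with 1.15 to 2.81 CPM in shNC (median 1.44) and 0.304 to 1.27 in shARID1A (median 0.731). The ranges overlapped slightly, because replicate 2 of shARID1A with E2 lay above the lowest shNC libraries. Its log2 fold change averaged over treatments was -1.14 (SE 0.26, adjusted p = 0.000606). By treatment it was -0.81, -0.81 and -1.81, and only the value with E2 plus fulvestrant passed the test (adjusted p = 0.00541). That call was lost without replicate 2 of that group in either arm (highest adjusted p = 0.0984).

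The 3 abundant ligands also split. WNT5A (chromosome 3, 55503416 to 55514948, hg19) had 26.2 to 30.4 CPM in shNC (median 29.5) and 15.8 to 20.7 in shARID1A (median 18.2), with no overlap. Its log2 fold change was -0.63, -0.81 and -0.62 in the 3 treatments (SE 0.12, 0.11 and 0.11; adjusted p = 0.000144, 1.52e-06 and 0.000103). WNT7B (chromosome 22, 46317991 to 46372685, hg19) had 39.0 to 45.6 CPM in shNC (median 41.9) and 27.5 to 32.9 in shARID1A (median 29.9), again with no overlap. Its log2 fold change was -0.61, -0.40 and -0.50 (SE 0.10, 0.09 and 0.10; adjusted p = 1.63e-05, 0.00128 and 0.00019). The calls of LGR4, LGR6, RSPO3, WNT5A and WNT7B in each treatment held in every alternative run.

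WNT10B was slightly higher in shARID1A, at 321 to 353 CPM against 282 to 309, without overlap. Its log2 fold change was 0.17 averaged over treatments (SE 0.03, adjusted p = 6.22e-05), and 0.15 (adjusted p = 0.0694), 0.21 (adjusted p = 0.00561) and 0.16 (adjusted p = 0.0349) by treatment. The call under E2 was lost without replicate 2 of either arm, and that under the combined treatment without any 1 of its 4 libraries (highest adjusted p = 0.148 and 0.185). The summed ligand level was 172.6 ± 4.32 RPKM in shNC and 175.8 ± 4.48 in shARID1A (SD, n = 6), while the mean WNT10B share was 76.0% and 84.1%. WNT5A made up 14.3% in shNC and 8.73% in shARID1A, and WNT7B 8.22% and 5.72%. WNT2B, a beta-catenin branch ligand, had 1.69 to 2.63 CPM in shNC (median 1.90) and 1.92 to 3.44 in shARID1A (median 2.59; log2 fold change 0.32, SE 0.17, adjusted p = 0.123). WNT11, a ligand that mostly signals without beta-catenin, had 0.455 to 1.62 and 0.446 to 1.03 CPM and was not called.

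Frizzled and LRP receptors moved little. LRP5, a co-receptor, had 147 to 161 CPM in shNC and 165 to 185 in shARID1A, which did not overlap, and it rose by 0.19 on the log2 scale averaged over treatments (SE 0.03, adjusted p = 3.12e-05). By treatment it rose by 0.23, 0.17 and 0.17, and these calls were lost in 2, 7 and 3 of the 19 alternatives (highest adjusted p = 0.067, 0.301 and 0.262). The other co-receptor gene, LRP6, had 52.8 to 65.4 and 48.7 to 57.6 CPM, and its value was -0.19 (SE 0.05, adjusted p = 0.00127). By treatment LRP6 passed only with E2 plus fulvestrant (-0.31, adjusted p = 0.00507). FZD10 had 65.7 to 74.0 CPM in shNC and 55.4 to 66.4 in shARID1A (log2 fold change -0.20, SE 0.05, adjusted p = 0.000606). By treatment FZD10 passed only with E2 plus fulvestrant (-0.28), a call lost in 3 of 19 alternatives (highest adjusted p = 0.138). FZD6, a receptor that can also restrain the beta-catenin branch, had 66.9 to 85.5 and 70.4 to 95.7 CPM (0.12, SE 0.05, adjusted p = 0.0488). The FZD6 call did not hold with a stricter filter or without any 1 of 7 libraries (highest adjusted p = 0.187). The sum over FZD3, FZD6 and FZD10 was 40.6 ± 1.66 RPKM in shNC and 39.5 ± 1.02 in shARID1A.

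Of the secreted inhibitors, DKK1 and DKK3 were tested. DKK1, which blocks LRP5 and LRP6 and is itself a beta-catenin target, had 9.33 to 13.9 CPM in shNC (median 11.4) and 7.35 to 9.99 in shARID1A (median 8.27). The highest shARID1A library, replicate 2 with E2 plus fulvestrant, overlapped the lowest shNC library. DKK1 fell by 0.45 on the log2 scale averaged over treatments (SE 0.10, adjusted p = 0.000318), and by treatment passed only with E2 (log2 fold change -0.53, adjusted p = 0.016). That call was lost without replicate 2 of shNC with E2 or replicate 1 of shARID1A with E2 (highest adjusted p = 0.132). DKK3, a divergent family member, had 0.464 to 1.10 and 0.231 to 1.59 CPM and was not called (log2 fold change 0.04, adjusted p = 0.945).

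Promoter sequence was available from RefSeq (GRCh38.p14) for 28 of the 41 members. AXIN2 and LGR5 were among those without it and were not searched. The 250 bases before each start were searched on both strands for a core of the TCF and LEF binding motif, CTTTGA, which reads TCAAAG from the opposite strand and is found in 11.2% of all 35116 such windows. Among the 44 windows of the members, only the DKK1 window held it, with matches starting 149 and 95 bases before the start. The longer form CTTTGAA, which contains the core, is in 3.81% of all windows, and DKK1 again was the only member with it. A match is a description of letters and not evidence of binding, and other windows may hold sites farther away. The DKK1 window is shown with both cores in capitals, next to those of LGR4, the member that rose most, and RSPO3, which fell most among members with over 10 CPM in shNC. They lie at chr10:52314031-52314280 on the plus strand for DKK1, chr11:27472791-27473040 on the minus strand for LGR4 and chr6:127118421-127118670 on the plus strand for RSPO3.
DKK1: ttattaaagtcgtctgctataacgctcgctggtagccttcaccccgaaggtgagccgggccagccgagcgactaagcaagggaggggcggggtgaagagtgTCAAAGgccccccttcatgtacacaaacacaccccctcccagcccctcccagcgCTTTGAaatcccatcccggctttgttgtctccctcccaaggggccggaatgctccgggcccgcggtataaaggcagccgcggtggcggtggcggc
LGR4: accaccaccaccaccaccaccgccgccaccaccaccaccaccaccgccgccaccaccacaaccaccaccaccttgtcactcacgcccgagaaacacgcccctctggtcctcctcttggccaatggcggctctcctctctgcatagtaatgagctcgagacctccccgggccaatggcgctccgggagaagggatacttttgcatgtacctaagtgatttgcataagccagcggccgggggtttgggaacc
RSPO3: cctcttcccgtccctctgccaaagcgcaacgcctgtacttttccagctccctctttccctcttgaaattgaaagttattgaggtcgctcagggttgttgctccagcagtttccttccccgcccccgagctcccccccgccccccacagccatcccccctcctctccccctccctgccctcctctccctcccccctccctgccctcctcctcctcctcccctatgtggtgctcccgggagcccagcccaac
The GC content was 62.8% for DKK1, 62% for LGR4 and 64.8% for RSPO3. Neither LGR4 nor RSPO3 carried the core in these letters.

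Within the destruction complex APC fell and AXIN1 did not pass the test. APC, the scaffold that binds beta-catenin, had 19.2 to 27.9 CPM in shNC (median 24.9) and 15.5 to 17.9 in shARID1A (median 17.2), without overlap. Its log2 fold change was -0.41, -0.44 and -0.67 (SE 0.13 each, adjusted p = 0.0247, 0.00808 and 0.00016). The DMSO call was lost without replicate 2 of shNC in DMSO or either shARID1A library in DMSO (highest adjusted p = 0.235). Under E2 the value was -0.21 (adjusted p = 0.39) when replicate 2 was left out of shNC, and the call was also lost when it was left out of shARID1A. AXIN1, the constitutive scaffold, had 55.9 to 66.7 CPM in shNC and 53.2 to 68.5 in shARID1A (log2 fold change -0.03, adjusted p = 0.601).

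AXIN2, the scaffold that is also a feedback target of beta-catenin, had 2.76 to 4.25 CPM in shNC (median 3.73) and 1.89 to 3.70 in shARID1A (median 2.61). The ranges overlapped. Its log2 fold change was -0.40, -0.41 and -0.43 by treatment, of which none passed, and -0.42 averaged over treatments (SE 0.15, adjusted p = 0.0265). The averaged call was lost without any 1 of 6 libraries (highest adjusted p = 0.109). CTNNB1 had 143.5 to 159.5 CPM in shNC and 153.0 to 175.0 in shARID1A, with overlap. Averaged over treatments it rose by 0.12 (SE 0.04, adjusted p = 0.00651). It rose by 0.23 in DMSO (SE 0.06, adjusted p = 0.00534, but 0.122 without replicate 1 of shARID1A in DMSO), while the values with E2 (0.05) and with E2 plus fulvestrant (0.06) did not pass. The difference of its E2 effect between arms was -0.18 and did not pass (adjusted p = 0.775).

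All 3 tested TCF and LEF genes were lower in shARID1A in the averaged comparison. TCF7L2 had 23.8 to 27.2 CPM in shNC (median 26.0) and 18.8 to 24.1 in shARID1A (median 20.2), and its log2 fold change was -0.31 (SE 0.06, adjusted p = 0.000181). LEF1, an activator of beta-catenin targets and a target itself, had 8.36 to 10.2 and 6.49 to 7.70 CPM, without overlap (-0.39, SE 0.09, adjusted p = 0.000707). TCF7 had 0.846 to 1.71 and 0.472 to 0.973 CPM (-0.80, SE 0.26, adjusted p = 0.0135), and its call was lost without replicate 1 of shNC in DMSO, replicate 2 of shNC with E2 or replicate 2 of shNC with E2 plus fulvestrant (highest adjusted p = 0.0779). By treatment only TCF7L2 and LEF1 with E2 passed, LEF1 narrowly (adjusted p = 0.0452), and the LEF1 call was lost in 11 of 19 alternatives. The TCF7L2 call was lost without replicate 2 of shNC or replicate 1 of shARID1A under E2 (highest adjusted p = 0.152).

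CXXC4 and CXXC5 encode related CXXC zinc-finger proteins that bind Dishevelled and restrain the beta-catenin branch. CXXC4 (chromosome 4, 105390671 to 105416058, hg19) was scarce, with 24 and 29 counts in the shNC libraries under DMSO, 45 and 43 under E2, and 46 and 44 under the combined treatment. In shARID1A it had 15 and 7, 3 and 5, and 18 and 19 counts. The arms did not overlap in CPM, and the lowest values were those with E2 in shARID1A. The ratio of shARID1A to shNC was 0.434 in DMSO (95% interval 0.251 to 0.726), 0.0876 with E2 (0.0367 to 0.18) and 0.442 with E2 plus fulvestrant (0.293 to 0.654), where intervals cover counting error only. The log2 fold change was -1.20 (adjusted p = 0.125), -3.47 (SE 0.60, adjusted p = 3.88e-05) and -1.17 (SE 0.42, adjusted p = 0.0368). The call with E2 plus fulvestrant was lost in 7 alternatives, DESeq2 among them (highest adjusted p = 0.17). CXXC5, in contrast, had 58.7 to 66.1 CPM in shNC and 59.8 to 65.2 in shARID1A and was not called (log2 fold change 0.02, adjusted p = 0.802).

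**Figure D5:**
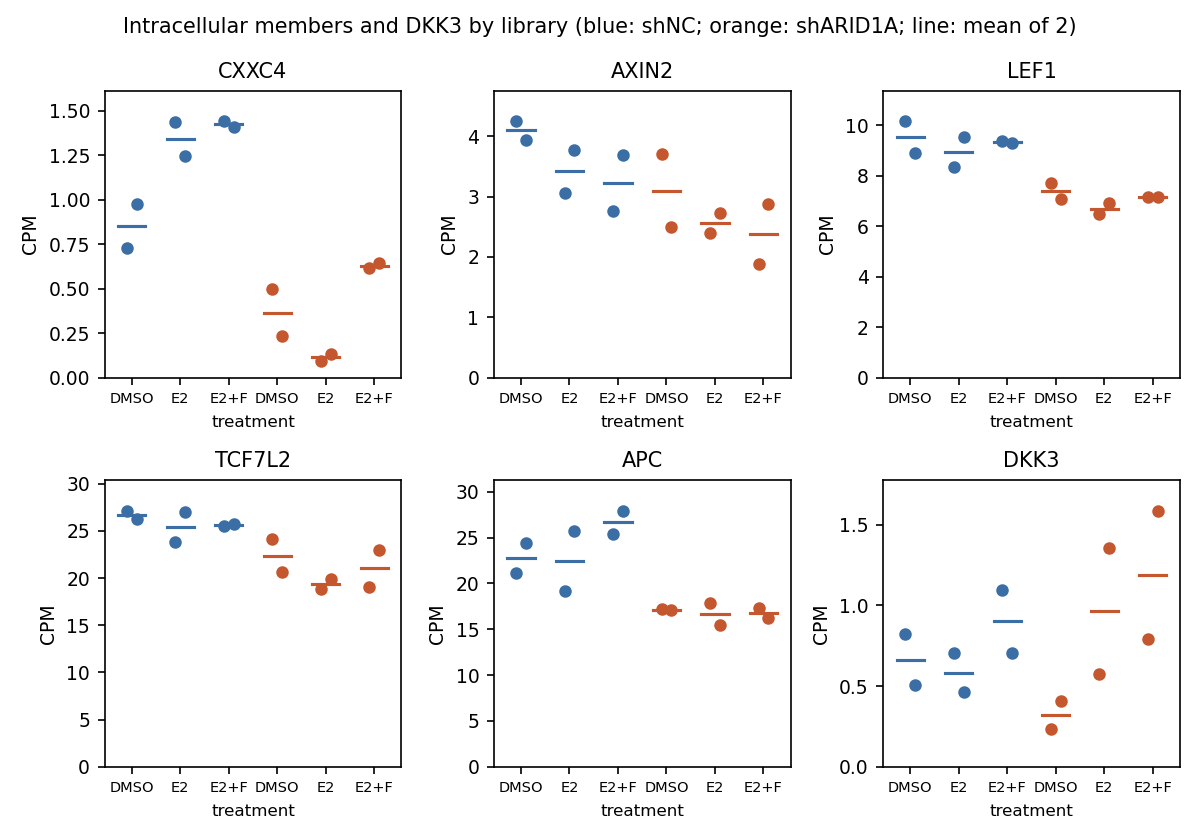
CPM of CXXC4, AXIN2, LEF1, TCF7L2, APC and DKK3 in every library, by arm and treatment (E2+F is E2 plus fulvestrant), with a line at the mean of 2. CXXC4 is lowest in the shARID1A libraries with E2 (0.0959 and 0.135 CPM), and the 2 DKK3 libraries of a group often lie far apart.

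The effect of E2 was read from E2 against DMSO in each arm. No tested member was called by edgeR in shNC or in shARID1A (0 of 25 in each). Of all genes, 0.00588% and 0.0235% were called, the latter 0.0176% higher and 0.00588% lower. DESeq2 also called 0 members in both. The receptor gene ESR1 had 2 to 34 counts a library and the estrogen target PGR 0 counts in all. Another estrogen target, GREB1, had 5.19 and 4.21 CPM with DMSO and 5.52 and 7.25 with E2 in shNC (log2 fold change 0.44, adjusted p = 1 to the precision given), and 5.68 and 6.30, then 5.72 and 5.30 CPM in shARID1A (-0.12, adjusted p = 0.928). The smallest unadjusted p belonged to RNF43 in shNC (1.15 and 1.31 CPM with DMSO, 1.21 and 2.81 with E2, log2 fold change 0.74) and to DKK3 in shARID1A (0.231 and 0.405, then 0.575 and 1.35 CPM, log2 fold change 1.64, adjusted p = 0.679). In shNC 20 of the 25 members had a log2 fold change under 0.3 in size, and in shARID1A 19.

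Fulvestrant added to E2 gave no member call either. By edgeR 0 of 25 were called in shNC and 0 in shARID1A, where 0.00588% of all genes were called in each arm. DESeq2 called 0 members in both. LRP6 had the smallest p in shNC, going from 52.8 and 57.1 CPM with E2 to 65.4 and 65.2 with E2 plus fulvestrant (log2 fold change 0.25, SE 0.08, adjusted p = 0.55). FZD6 had it in shARID1A, from 80.1 and 70.4 to 85.6 and 95.7 CPM (0.27, SE 0.08, adjusted p = 0.347). FZD6 in shNC had a value of 0.23 (adjusted p = 0.55). E2 plus fulvestrant against DMSO called 0 members in either arm with both tools. With edgeR 0.0118% of all genes were called in shNC and 0% in shARID1A. These comparisons share their E2 and DMSO libraries.

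Whether the arms responded differently was tested directly. For E2 this test called 0 of 25 members with edgeR and with DESeq2, against 0.0294% of all genes with edgeR. CXXC4 was nearest, with an E2 effect of 0.66 in shNC and -1.62 in shARID1A and a difference of -2.27 (SE 0.92, adjusted p = 0.759). DKK3 had -0.21 and 1.64, a difference of 1.85 (adjusted p = 0.767). For fulvestrant the test called 0 members with both tools, against 0.0118% of all genes with edgeR. CXXC4 was again nearest (difference 2.29, SE 0.82, adjusted p = 0.9998). It went from 3 and 5 to 18 and 19 counts in shARID1A and from 45 and 43 to 46 and 44 in shNC.

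Other genes of the pathway were read from lists fixed beside the members, in the comparison averaged over treatments, where 20.3% of all genes were called higher and 22.8% lower. Of 12 tested genes for WNT secretion and extracellular control, 5 were higher and 5 lower in shARID1A. The higher ones included 3 WNT inhibitors, the deacylase gene NOTUM (25.7 to 30.5 CPM in shNC, 38.0 to 46.4 in shARID1A, log2 fold change 0.59), the DKK co-receptor gene KREMEN2 (15.0 to 17.6 and 26.2 to 32.4 CPM, 0.83) and the WNT protease gene TRABD2A (119 to 131 and 198 to 219 CPM, 0.71). The lower ones included the heparan sulfate sulfatase gene SULF2 (-2.18), the glypican gene GPC4 (-1.01) and the LRP family gene LRP4 (-1.50). WLS, which carries WNT proteins to the cell surface, fell by 0.10 (adjusted p = 0.0356). The list's median was 0.01, against -0.02 for all genes.

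Of 25 tested intracellular genes, 7 were higher and 8 lower, against 20.3% and 22.8% of all genes, with a median of -0.01. NKD2, an antagonist of Dishevelled, rose from 71.7 to 87.9 CPM in shNC to 208 to 229 in shARID1A (log2 fold change 1.49, SE 0.04, adjusted p = 1.65e-23). DACT1, another Dishevelled antagonist, fell from 1.34 to 2.85 CPM to 0.0686 to 0.439 (-2.65, SE 0.29, adjusted p = 7.16e-09). The ubiquitin ligase gene BTRC, which marks beta-catenin for degradation, had -0.49.

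Of 21 tested beta-catenin targets outside the members, 4 were higher and 9 lower, against 20.3% and 22.8% of all genes, with a median of -0.11. The receptor gene EPHB2 fell by 1.72 on the log2 scale from 31.7 to 37.4 CPM in shNC, and the adhesion receptor gene CD44 from 242 to 266 CPM to 143 to 158 (-0.80). PTGS2 (-1.64) and BMP4 (-1.57) also fell, while NOTUM (0.59, also in the list above) and the inhibitor of differentiation gene ID2 (1.51) rose. The list was written with earlier results of these data known. MYC, at 198 to 217 CPM in shNC and 198 to 216 in shARID1A, and CCND1 were not called (log2 fold change -0.02 and -0.01, adjusted p = 0.758 and 0.856), and were chosen for mention after their values were seen.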

How the data were processed

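RNA was measured in 12 poly(A) libraries, made with a TruSeq mRNA kit per the labels. The authors deposited raw counts for each library and gene, without scaling. Per the submitters' processing notes they used Trim Galore, cutadapt and FastQC, the Subread 2.0.0 aligner and the hg19 build. Per the file headers, featureCounts 2.0.0 did the counting over exons. No strand setting was stated, so overlapping genes on opposite strands cannot be told apart. The labels spell the zeros of the fulvestrant dose as letters, and 100 nM was taken as its meaning.

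The whole table was fitted with edgeR 4.0.16 under R 4.3.3: filterByExpr by group kept 17020 genes, libraries were scaled by TMM, each group had its own mean over the 12 libraries, and 12 contrasts were tested by quasi-likelihood F-tests. Benjamini-Hochberg adjustment ran over all genes of a contrast, with calls under 0.05. The SE is the log2 fold change divided by the square root of F. The procedure was checked on simulated data, with changes planted only in genes at a mean of 1 CPM or more. That check does not cover members below this level, and its outcome is not given here. Alternatives were other size factors, DESeq2 1.42.0, other filters, fewer groups in the fit, a replicate block and leaving out each library.

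Every member called was named, as were 12 core pathway genes whether called or not. The 14 largest averaged changes are given with a log2 fold change and adjusted p, and with values by library or ranges over an arm. Of each other list, up to 8 genes were named, those with the smallest adjusted p. MYC and CCND1 are exceptions, named after their values were seen. Members and lists were chosen with earlier results of these data known.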

Additional observations from a re-analysis of the deposited data

How the results depend on the processing

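Of 55 called changes of single members, 35 were called in every alternative that tested them and 20 were lost in at least 1. In the comparison averaged over treatments, 17 of 20 calls held in all of these alternatives, and AXIN2, FZD6 and TCF7 did not. CXXC4, LGR5 and TCF7 fall below a mean of 1 CPM and have no value under that stricter filter. Other size factors, DESeq2, other filters and fits of only the groups compared left the number of called members within 1.5 times the values given, from 8 (DESeq2) to 12 (only the groups compared) in DMSO, 11 to 13 with E2 and with E2 plus fulvestrant, and 16 (mean CPM of at least 1) to 20 averaged over treatments. Leaving out 1 library at a time, the counts ran from 5 to 10 in DMSO, 7 to 13 with E2, 8 to 13 with E2 plus fulvestrant and 17 to 20 averaged over treatments, and stayed at 0 for the treatment comparisons and the differences between arms. The averaged comparison has no separate fit of only the groups compared, since it uses all of them. The replicate numbers did not clearly pair the libraries, with correlations of their deviations of -0.22 to 0.28 over 15 pairs of groups, 7 of them above 0.1. With a replicate block the counts were 10 in DMSO, 13 with E2, 13 with E2 plus fulvestrant and 20 averaged over treatments, and the only changed call was DKK1 in DMSO, which was gained. Of the members not called in the averaged comparison, 4 changed sign when a library was left out. Over these fits DKK3 (0.04 with all libraries) ran from -0.23 to 0.183, being below 0 without replicate 2 of any group, WNT11 (-0.16) from -0.38 to 0.222, above 0 without replicate 2 of shNC in DMSO, AXIN1 (-0.03) from -0.0787 to 0.0078, above 0 without replicate 1 of shARID1A in DMSO, and CXXC5 (0.02) from -0.0014 to 0.0347, below 0 without replicate 2 of shNC or replicate 1 of shARID1A with E2 (-6e-04 and -0.0014). Members under about 1 CPM rest on few counts, and changes in them could only be called when large.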

Other observations

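Of 25 tested genes of noncanonical WNT signalling and planar cell polarity, 5 were higher and 9 lower in shARID1A averaged over treatments, against 20.3% and 22.8% of all genes, with a median log2 fold change of -0.11. ROR2, a WNT5A receptor, rose from 67.6 to 79.7 CPM in shNC to 86.4 to 105 in shARID1A (log2 fold change 0.36, SE 0.05, adjusted p = 1.01e-07), while WNT5A itself fell. PRICKLE4, a planar polarity gene, rose by 0.47, NFATC2, a calcium-regulated transcription factor gene, had -0.81, and DAAM1, which links Dishevelled to actin assembly, -0.70.

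Of 17 tested partners and repressors of beta-catenin in the nucleus, 5 were higher and 5 lower, against the same shares of all genes, with a median of 0.07. The Groucho-type corepressor genes went both ways. TLE4 fell from 23.8 to 27.8 CPM in shNC to 12.03 to 15.7 in shARID1A (log2 fold change -0.92, SE 0.07, adjusted p = 1.03e-12). TLE1 rose from 26.7 to 30.6 CPM to 34.8 to 41.2 (0.47, SE 0.05, adjusted p = 1.57e-08), and TLE2 rose by 0.40.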
